A study of Homo sapiens with 33 samples.

Results

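THP-1, a human monocytic leukaemia cell line grown in suspension, was compared with and without tumour necrosis factor alpha (TNF), given at 5 ng/ml for 60 min. The comparison rests on 12 arrays of the 33 deposited columns: 7 arrays labelled THP-1 TNF (replicates 1 to 6 and 8) and 5 labelled THP-1 control (replicates 1, 2, 3, 4 and 7). They were chosen by their labels. THP-1 has 15 labelled columns, and 3 of them were left out because they carry the readings of another column again (control replicates 5 and 6 and TNF replicate 7). The remaining columns belong to CaCo-2, a colon carcinoma line given the same dose for the same time. Whether the arrays of a group stem from different cultures is not in the labels, and the p-values therefore reflect array-to-array spread that may be technical. They name no vehicle for the controls, and THP-1 and CaCo-2 are each a single cell line.

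TNF is a cytokine released mainly by macrophages and monocytes. It binds TNF receptors, whose adaptor proteins and ubiquitin chains recruit the TAK1 and IKK kinases. IKK marks the IκB inhibitors for destruction and frees the transcription factor NF-κB, while JNK and p38 kinases activate AP-1. In monocytic cells, NF-κB switches on the genes of cytokines, of TNF itself and of its own inhibitors within the first hour.

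RNA was copied into radioactive cDNA and hybridised to nylon membranes with 34560 cDNA spots. The deposited values are linear intensities without a stated unit, and levels are given below as these intensities. Those of control replicate 3 are given after division by 3. Differences are log2 fold changes, TNF minus control, after quantile normalization. An exact 0 stood at between 32.1% and 39.6% of the spots of an array. No source used here explains it, so 0 was treated as missing in the fit and is reported apart. A spot was tested if at least 3 arrays of each group read above 0, which held for 21989 spots, of which 11344 carried the symbol of 1 human gene (7773 genes). Another 12571 spots had too few readings, among them 1522 at 0 on all 12 arrays.

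Control replicate 3 stands apart from the other 11 arrays. Its values are about 3 times those of the other arrays and were read as a sum and divided by 3; the labels do not state this, and no single column of the same readings was found. Its median correlation with the other arrays was 0.993, against 0.995 to 0.998 for the rest, and 739 of its readings lay below the lowest value above 0 on any other array (0.105). On TNF replicate 6, 286 spots were excluded, where the other 11 arrays lost 46 to 168. The share of spots at 0, the number of excluded spots, the median intensity and the median correlation with other arrays did not separate the TNF from the control group (exact permutation tests, two-sided, adjusted p = 0.847 for each of the 4 measures). Some, but not all, results that rest on control replicate 3 or TNF replicate 6 are given with and without that array.

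Markers separated THP-1 only weakly from CaCo-2 on these arrays, so the cell line rests on its label. Of 54 monocyte and myeloid markers, 17 had a spot, and 12 of these were above 0 on all 12 THP-1 arrays; no spot used here is named for CD14 or LYZ. Of the 20 marker spots (12 genes) measured in both unstimulated lines, 0 passed the test for a difference between THP-1 and CaCo-2 (limma, adjusted over all spots tested). At an unadjusted p under 0.05, 5 were higher and 1 lower in THP-1. The closest was a spot of LST1, a leukocyte gene, at 19N13, 0.16 ± 0.03 above CaCo-2 (log2 difference ± SE, limma adjusted p = 0.0529); LST1 differed by 0.06 and -0.03 at 2 other spots. Of 9 epithelial marker spots 0 passed, with 2 lower in THP-1 at an unadjusted p under 0.05. Over all spots, 71 of 19420 (0.366%) differed between the unstimulated lines, 25 of them higher in THP-1, and 17.6% did so at an unadjusted p under 0.05. The median absolute difference between the lines was 0.04 on the log2 scale.

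No spot passed the test for a TNF effect in THP-1. Of 21989 spots, 0 (0%) had an adjusted p under 0.05 in limma with Benjamini-Hochberg adjustment, and the smallest adjusted p was 1.00. Without adjustment, 544 spots (2.47%) had a p under 0.05, 238 of them higher (1.08%) and 306 lower (1.39%) after TNF. The median difference was 0.00, the median absolute difference 0.02 and the 99th percentile of the absolute difference 0.20, with a median SE of 0.03. The 95% interval lay within 1.5-fold in both directions at 21849 spots (99.4%) and within 2-fold at 99.9%. These intervals bound the intensity of a spot over arrays that may be technical repeats, and not the change of a transcript. On the same platform the median absolute log2 difference between the unstimulated lines was 0.04.

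The upper tail of the differences came with control replicate 3. Of the 84 spots at or above 0.30, 4 kept that size when this array was left out, 47 were below it and 33 had too few control readings to be tested, while the 99th percentile of the absolute difference went from 0.20 to 0.11. No spot was at or below -0.30 in either case. VPS33A, a subunit of the complexes that tether vesicles to lysosomes, had the largest difference among named spots above 0 on all arrays. Its intensities were 0.975, 0.866, 0.146, 0.872 and 0.851 on the control arrays and ran from 0.815 over a median of 1.02 to 1.31 on the TNF arrays. Control replicate 3 lay far below all other arrays, and TNF replicate 5 was the highest. The difference was 0.67 ± 0.40 (SE, limma adjusted p = 1.00) with that array and 0.14 ± 0.10 without it. CAP2 (0.35), PHF7 (0.34), AP5Z1 (0.34) and PTPRK (0.33) likewise read 0.240, 0.134, 0.150 and 0.169 on control replicate 3, against 0.401 or more on every other array. All these readings of control replicate 3 are after division by 3, so they depend on that divisor and are not the deposited values.

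**Figure D1:**
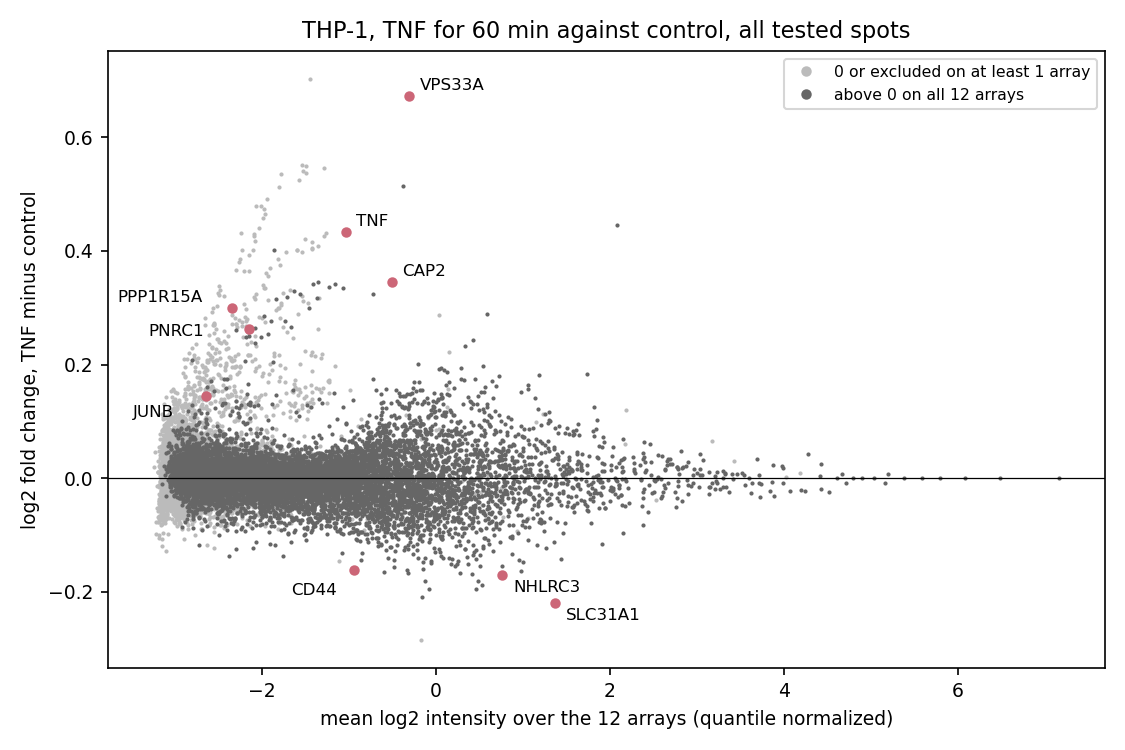
Difference between TNF and control in THP-1 (log2 fold change, y axis) against the mean log2 intensity over the 12 arrays (x axis) for the 21989 tested spots; dark points were above 0 on all 12 arrays, light points were not, and red points are named genes. The 84 spots at 0.30 or above form an upper tail, of which 4 kept that size without control replicate 3; TNF lies at 0.43 and VPS33A at 0.67.

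The TNF transcript itself had the largest difference of any named list member, 0.43 ± 0.12 on the log2 scale. Its spot (plate address 95G09) read 0.386, 0.493, 0.391, 0.404 and 0.398 on control replicates 1, 2, 3, 4 and 7. On the TNF arrays it read 0.402 at the lowest, 0.556 at the median and 0.680 at the highest. On 6 of 7 TNF arrays the spot was above every control array. TNF replicate 6 gave the lowest value and lay among the controls, and control replicate 2 was the highest control. The mean log2 intensity was -0.85 ± 0.27 (SD, n = 7) after TNF and -1.28 ± 0.14 (SD, n = 5) in controls. The 95% interval of the difference ran from 0.18 to 0.69. The limma test gave an unadjusted p = 0.00280 and an adjusted p = 1.00, so the transcript did not pass. An exact permutation test of this single value gave p = 0.0126 (two-sided, smallest possible p = 0.00126); the gene was picked with earlier results of these data known, so this p is not adjusted for that choice.

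Without TNF replicate 6, the only TNF array among the controls at this spot, the difference was 0.52 and the limma adjusted p was 0.304; the spot did not pass there either. A repeated column of the same array, given as a sum, read 0.450 for this spot after division by 3. That lay between the single reading of 0.402 and the other TNF arrays. The repeated columns of control replicates 1 and 2 read 0.384 and 0.455, against single readings of 0.386 and 0.493. The repeat of TNF replicate 6 thus still lay below that of control replicate 2. Without control replicate 3 the difference was 0.41 ± 0.13. Over 31 alternative settings it ran from 0.38 to 0.54 with adjusted p between 0.304 and 1.00. The spot could not be compared with CaCo-2, where too few arrays read above 0.

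Since TNF is a known NF-κB target, the 250 bases before its annotated start are shown (RefSeq, GRCh38.p14, chr6:31575315-31575564, plus strand), beside those of JUNB, an AP-1 subunit whose spots are described next (chr19:12791236-12791485, plus strand). Capitals mark a match to a κB-like motif, GGG followed by any 5 bases and CC, searched on both strands.
TNF: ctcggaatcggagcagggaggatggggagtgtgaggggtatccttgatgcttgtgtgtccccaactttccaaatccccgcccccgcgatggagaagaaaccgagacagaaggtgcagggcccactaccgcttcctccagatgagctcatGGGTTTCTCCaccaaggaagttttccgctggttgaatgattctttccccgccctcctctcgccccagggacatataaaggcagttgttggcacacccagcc
JUNB: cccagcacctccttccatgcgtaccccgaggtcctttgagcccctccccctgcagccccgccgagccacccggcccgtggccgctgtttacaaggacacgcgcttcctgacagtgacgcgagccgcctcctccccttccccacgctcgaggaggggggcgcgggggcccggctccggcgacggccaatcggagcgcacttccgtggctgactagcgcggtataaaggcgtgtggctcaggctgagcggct
The TNF window holds 1 match, which begins 101 bases before the start, and the JUNB window holds 0. The motif occurs in 54.4% of 35116 RefSeq promoter windows of this length, and a match is a description of the letters only. An AP-1 motif, TGANTCA on either strand, is in 6.57% of these windows and in neither of the printed ones.

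Spots at plate addresses beside that of TNF also tended to read higher after TNF. An address names a source plate, row and column, and no source used here gives positions on the membrane. Of the 8 neighbouring addresses 7 were tested, and all 7 differed upwards by 0.06 to 0.27, with a median of 0.13, against 0.00 over all spots. Among these neighbours by address, BTK, a tyrosine kinase of B and myeloid cells, differed by 0.16 ± 0.05. MAX, the partner of MYC, differed by 0.14 ± 0.05 (limma adjusted p = 1.00 for each). An unnamed neighbour (95G10) differed by 0.27 ± 0.06. The source plate of these spots had the highest median of all 90 plates, 0.02, where plate medians ran from -0.02 to 0.02. Of the 18 spots above 0 on all arrays with a difference of at least 0.30, 4 lay on this plate: TNF (0.43) and the unnamed spots 95I10 (0.40), 95C24 (0.32) and 95F05 (0.32). Control replicate 3 was the most deviating array at 15 of the 18, and the other 3 (TNF, 95I10 and 95F05) were all on this plate. The part of position in the TNF value was not tested.

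**Figure D2:**
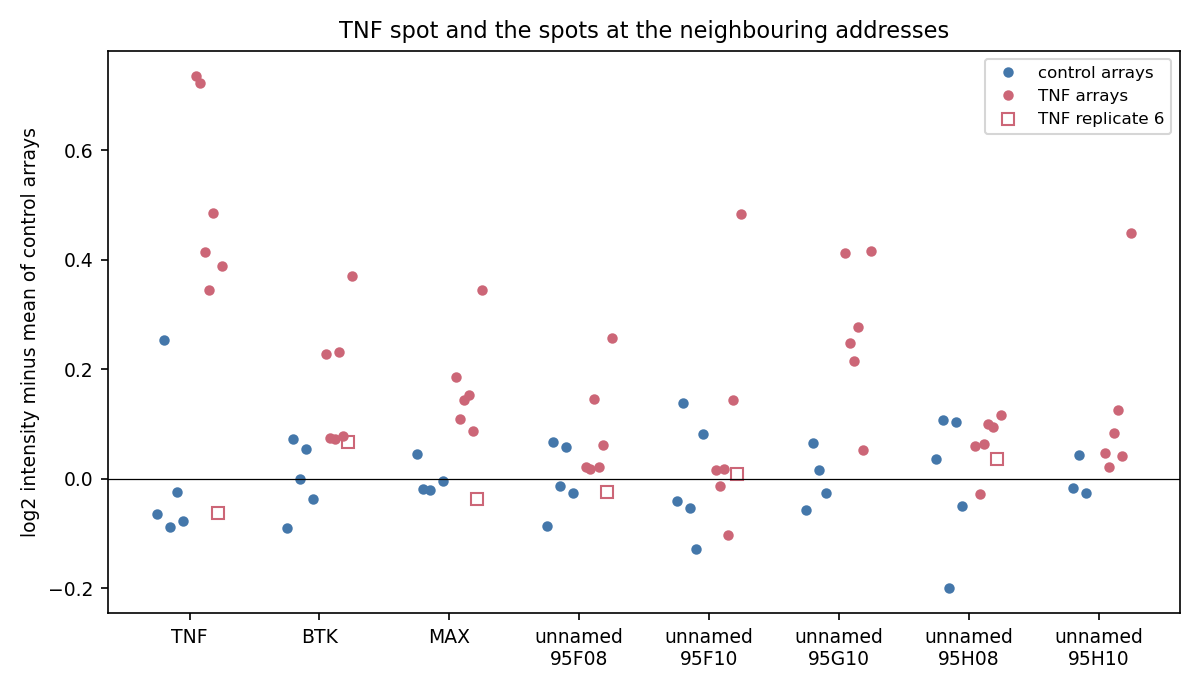
Log2 intensity minus the mean of the control arrays (y axis) for the TNF spot and the 7 tested spots at neighbouring addresses (x axis) in THP-1; blue points are control arrays, red points TNF arrays and the open square TNF replicate 6, with readings of 0 left out. TNF shows the widest gap, with replicate 6 among the controls, and the neighbours differ upwards by 0.06 to 0.27.

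Among receptor and proximal signalling genes, 19 of 40 listed genes were tested at 39 spots, and 0 passed. At an unadjusted p under 0.05, 1 spot was higher and 0 lower, with a list median of 0.00, the same as over all spots. That spot was TAB2, an adaptor that ties ubiquitin chains to the TAK1 kinase. It read 0.815, 0.787, 0.740, 0.716 and 0.751 on the controls, and 0.779, 0.861 and 0.935 at the lowest, median and highest TNF array. The groups overlapped, with 5 of 7 TNF arrays above every control, and the difference was 0.15 ± 0.05 (unadjusted p = 0.00754, limma adjusted p = 1.00). A second TAB2 spot (43A19) differed by -0.02. The adaptors TRADD (0.00 at each of 2 spots) and FADD (0.00) and the kinase MAP3K7 (TAK1, -0.02 to 0.04 over 7 spots) stayed close to 0.

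Of the IKK and NF-κB subunit list, 17 of 31 genes were tested at 25 spots and 0 passed, also at an unadjusted p under 0.05. CHUK, the kinase IKKα, differed by 0.14 ± 0.08 (unadjusted p = 0.0942), IKBKB, the kinase IKKβ, by 0.00, and IKBKG, the regulatory subunit NEMO, by 0.05 at each of 2 spots. No spot used here is named for NFKB1 or RELB.

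Inhibitors and feedback regulators of NF-κB were tested at 23 spots of 16 genes, of 25 listed; 0 passed and 1 (4.35%) was higher at an unadjusted p under 0.05. NFKBIZ, an inducible nuclear IκB protein, read 0, 0.223, 0.218, 0 and 0.216 on the controls. On the TNF arrays it was above 0 throughout, at 0.212, 0.229 and 0.257 for the lowest, median and highest. TNF replicate 6 was again lowest, and 5 of 7 TNF arrays lay above every control. The difference was 0.13 ± 0.06 (unadjusted p = 0.0456, limma adjusted p = 1.00), and a second NFKBIZ spot (31B06) differed by 0.04. NFKBIZ (72E21) had too few control readings for a test without control replicate 3. NFKBIE, the inhibitor IκBε, differed by -0.04 ± 0.02, IER3 by 0.03 ± 0.02, and ZC3H12A, an RNase that degrades cytokine mRNAs, by 0.06 and 0.08 at 2 spots. CYLD, which removes ubiquitin chains from the signalling complex, lay between -0.01 and 0.00 at 4 spots. No spot used here is named for NFKBIA or TNFAIP3, the feedback genes most used as readouts of this pathway.

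The immediate early and AP-1 genes gave 3 spots higher and 2 lower at an unadjusted p under 0.05, among 34 spots of 24 genes tested of 53 listed; 0 passed, and the list median was 0.02. These were 14.7% of its spots against 2.47% of all; without control replicate 3, 1 was higher and 1 lower of 27 (7.41% against 2.22%). The gene lists were written with earlier results of these data known, so such shares are descriptions and not tests. JUNB was represented by 3 spots. The spot at 22G16 read 0.151, 0.173, 0.150, 0.142 and 0.148 on the controls and 0.153, 0.167 and 0.181 at the lowest, median and highest TNF array. Its groups overlapped through control replicate 2. The difference was 0.14 ± 0.05 (unadjusted p = 0.0111, limma adjusted p = 1.00), 0.17 without TNF replicate 6 and 0.13 without control replicate 3. The spot at 54O01 was above 0 on 7 of 7 TNF arrays, at 0.414 to 0.433, and on 3 of 5 controls, at 0.422, 0.423 and 0.275. Its difference of 0.22 ± 0.11 rests on the low reading of control replicate 3. At 89L10, 5 of 7 TNF arrays and 1 of 5 controls were above 0. At 22G16 the interaction of line and treatment was 0.18 (limma, unadjusted p = 0.0166), and it did not pass. Of 16931 spots, 0 passed this test and 2.43% had an unadjusted p under 0.05.

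PPP1R15A (GADD34), a regulatory subunit of the phosphatase that ends the stress-induced block of translation, was singled out after its values were seen. It was 0 on control replicate 1, excluded on control replicate 7, and read 0.179, 0.173 and 0.168 on control replicates 2, 3 and 4. The TNF arrays read 0.170 at the lowest, 0.226 at the median and 0.256 at the highest. All TNF arrays but replicate 6 were above every control, and the difference was 0.30 ± 0.11 (unadjusted p = 0.0210, limma adjusted p = 1.00). Without TNF replicate 6 it was 0.36, and without control replicate 3 too few control readings were left for a test.

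MCL1, an anti-apoptotic BCL2 family member, went opposite ways at its 2 tested spots. The spot at 85G24 read 0.641, 0.675, 0.750, 0.666 and 0.657 on the controls and 0.598 to 0.679 on the TNF arrays, a difference of -0.12 ± 0.04, or -0.08 without control replicate 3. The spot at 25B21, also singled out after its values were seen, read 0.212 to 0.222 on the controls and 0.208 to 0.238 on the TNF arrays, a difference of 0.06 ± 0.03. The unadjusted p was 0.0130 and 0.0406, and neither passed in limma. EGR3 differed by -0.08 and -0.02 at 2 spots, JUN by 0.05, IER2 by 0.05 and DUSP1 by -0.04. PLK2, at 0.27, was 0.00 without control replicate 3.

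The broader list of NF-κB-dependent TNF response genes held 200 genes, of which 83 were tested at 142 spots. None passed (0 higher, 0 lower), 7 were higher and 6 lower at an unadjusted p under 0.05, which is 9.15% of its spots against 2.47% of all, and the list median was 0.00. Without control replicate 3, 4 were higher and 3 lower of 128 spots, or 5.47% against 2.22% of all. The list shares TNF, JUNB, PPP1R15A and both MCL1 spots with other lists here, so the same spots count in several shares. It too was written with earlier results of these data known. PNRC1, a nuclear receptor coactivator, read 0.204, 0.212, 0.206, 0.205 and 0.199 on the controls, a narrow band. It read 0.202, 0.238 and 0.303 at the lowest, median and highest TNF array, and 6 of 7 TNF arrays, all but replicate 6, were above every control. The difference was 0.26 ± 0.08 (unadjusted p = 0.00685, limma adjusted p = 1.00), 0.31 without TNF replicate 6 and 0.26 without control replicate 3. SOD2, the mitochondrial superoxide dismutase, differed by 0.00 ± 0.03 and -0.06 ± 0.06 at its 2 tested spots; the 95% interval of the spot at 32C13 ran from -0.07 to 0.07 and its direction changed with the setting. CEBPB, a transcription factor of monocytes, lay between -0.04 and 0.03 at 5 spots, and IRF1, a factor of the interferon response, at 0.06 and -0.01.

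**Figure D3:**
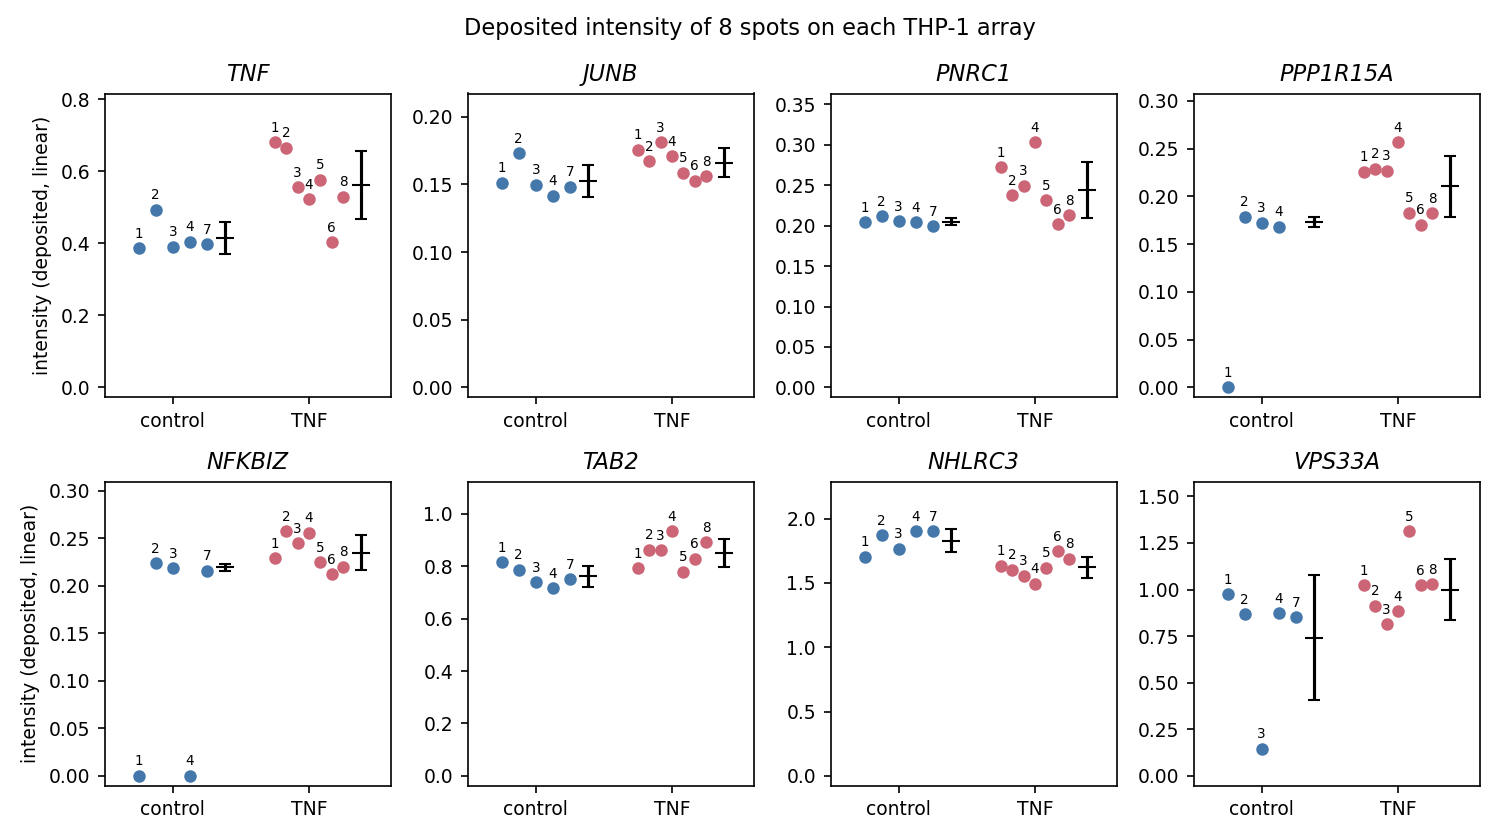
Deposited intensity (y axis, linear, starting near 0) of 8 spots on the 5 control and 7 TNF arrays of THP-1 (x axis), each point labelled with its replicate number; black bars are the mean and SD of readings above 0. TNF, PNRC1 and PPP1R15A read above every control on all TNF arrays but replicate 6, NHLRC3 reads lower after TNF, and VPS33A differs through control replicate 3. Control replicate 3 is shown after division by 3.

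Cytokines, chemokines and their receptors were tested at 29 spots of 19 genes, of 74 listed. Besides TNF, the receptor subunits IL6ST (0.05 ± 0.02) and IL17RA (0.04 ± 0.02) were higher at an unadjusted p under 0.05, 0 were lower and 0 passed. IL6ST read above 0 on only 3 of 7 TNF arrays and 4 of 5 controls. These 3 spots were 10.3% of the list against 2.47% of all, and the list median was 0.00. A second IL17RA spot differed by 0.00. CXCL16 differed by -0.03, 0.03 and 0.03 at 3 spots, TNFSF10 (TRAIL) by -0.03 and -0.04 and TNFSF13B (BAFF) by -0.02. No spot used here is named for CXCL8, IL1B, CCL2, CCL3 or CCL4, nor for the receptors TNFRSF1A and TNFRSF1B.

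Adhesion and migration genes gave 2 lower and 0 higher spots at an unadjusted p under 0.05, among 14 spots of 10 genes of 33 listed, and 0 passed. The share was 14.3% against 2.47% of all spots, and 1 of 13 (ITGA5, 7.69%) against 2.22% of all without control replicate 3. CD44, the hyaluronan receptor, read 0.512, 0.579, 0.627, 0.530 and 0.533 on the controls and 0.441, 0.507 and 0.538 at the lowest, median and highest TNF array. The groups overlapped, and the difference was -0.16 ± 0.06 (unadjusted p = 0.0197, limma adjusted p = 1.00), or -0.11 without control replicate 3. ITGA5, a fibronectin receptor subunit, differed by -0.04 ± 0.02 with an intensity of 0.175 to 0.187 on the controls and 0.159 to 0.178 after TNF. ICAM1 is not named for any spot used here.

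The other lists held few or no spots past an unadjusted p of 0.05, and 0 passed in any. These were 0 of 52 spots for the MAP kinase cascade, 2 of 35 (the MCL1 spots) for cell death, 0 of 18 for antioxidant and stress genes, 0 of 57 for mRNA decay, 0 of 22 for the interferon response and antigen presentation and 0 of 19 for innate sensors. Monocyte and myeloid markers gave 0 of 31 spots, and their summed intensity ran from 7.16 to 8.96 on the TNF arrays and from 7.96 to 9.31 on the controls. Lymphocyte (0 of 3), erythroid (0 of 3), epithelial (0 of 11) and fibroblast or endothelial markers (0 of 19) gave none. Of the erythroid list, KLF1 was at 0 on all 12 arrays, while ALAS2 and TFRC were above 0 on all 12. Cell cycle genes gave 0 of 30. Among 19 housekeeping spots, ACTG1, a cytoplasmic actin, differed by 0.19 ± 0.08. Among 7 ribosomal spots, RPL22, a ribosomal protein, differed by -0.11 ± 0.05. Each was the only spot of its reference list at an unadjusted p under 0.05. That was 5.26% of the housekeeping and 14.3% of the ribosomal spots, against 2.47% of all. Without control replicate 3, 1 of 18 antioxidant spots (DDIT4) was higher at an unadjusted p under 0.05. Of 31 monocyte spots (CYBB and CEBPA), 1 was higher and 1 lower, and of 32 cell death spots, 1 (MCL1 at 85G24) was lower. These were 5.56%, 6.45% and 3.12% of the spots of each list, against 2.22% of all. The ACTG1 and RPL22 spots did not have an unadjusted p under 0.05 there. List medians lay between -0.03 and 0.02.

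**Figure D4:**
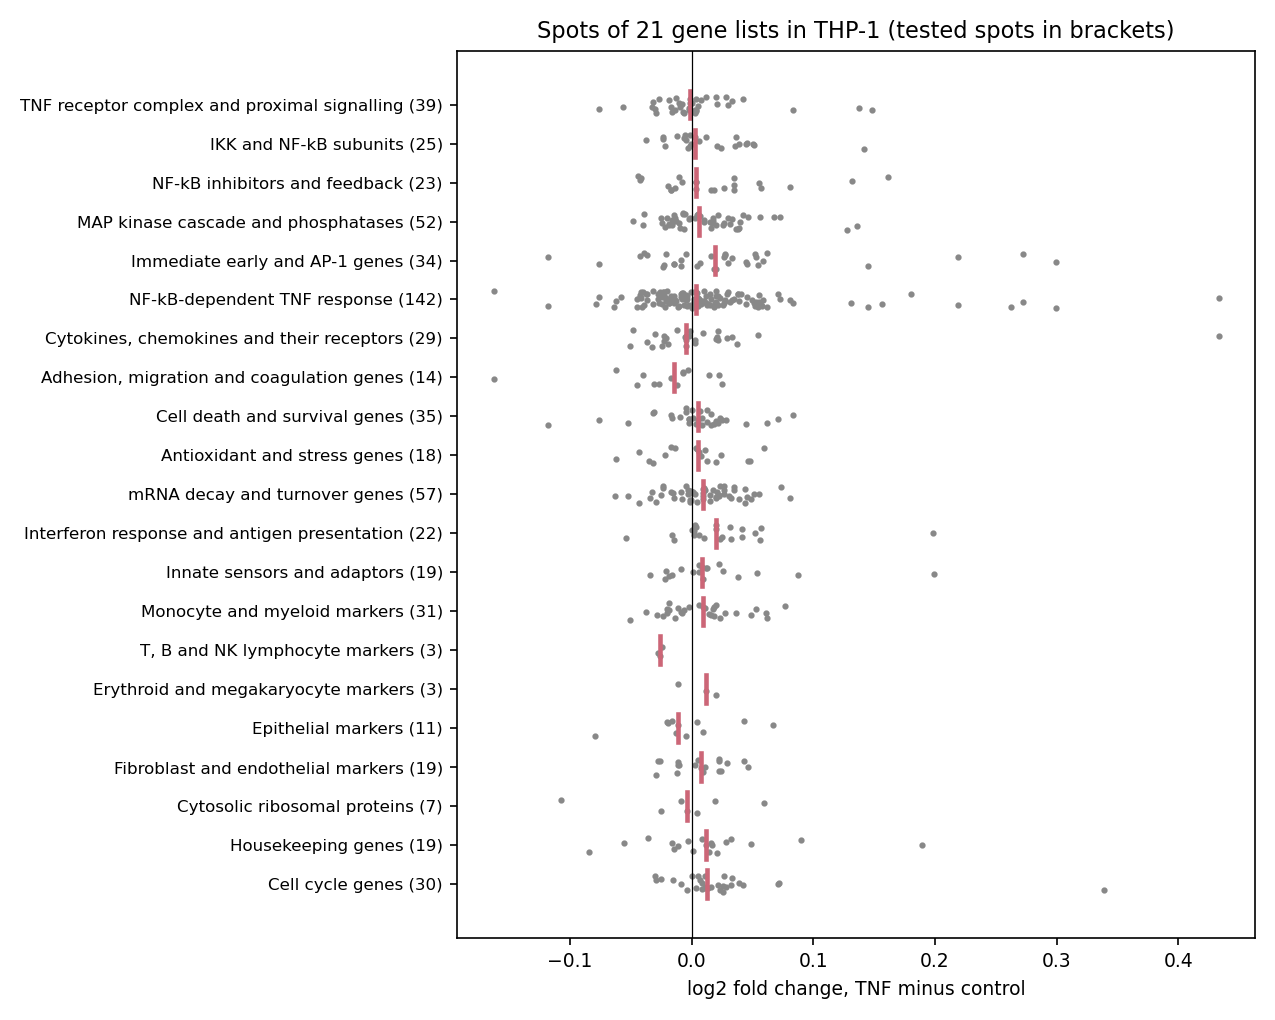
Log2 fold change (x axis, TNF minus control, THP-1) of every tested spot in 21 gene lists (rows, number of tested spots in brackets), with the list median as a red bar; the vertical spread of points within a row carries no value. Medians lie between -0.03 and 0.02, and the points farthest to the right include TNF at 0.43.

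Among all named spots, the smallest unadjusted p values belonged to small differences. NHLRC3, a secreted NHL repeat protein, read 1.70, 1.87, 1.77, 1.90 and 1.90 on the controls and 1.49, 1.62 and 1.75 at the lowest, median and highest TNF array. The difference was -0.17 ± 0.04 (unadjusted p = 0.000571, limma adjusted p = 1.00); after normalization the groups did not overlap, though TNF replicate 6 read above control replicate 1 before it. JOSD1, a deubiquitinase, read 0.686 to 0.744 on the controls and 0.630 to 0.676 after TNF at 63N08, a difference of -0.11 ± 0.03 without overlap. Other JOSD1 spots that were tested differed by -0.01 to 0.04. SLC44A2, a choline transporter, differed by -0.06 ± 0.02 at 36L24 and by -0.04 to 0.08 at its other tested spots. LPIN3, a phosphatidate phosphatase, read 1.23 to 1.38 on the controls and 1.15 to 1.22 after TNF, a difference of -0.12 ± 0.03 without overlap. Over the 9979 spots above 0 on all 12 arrays, 0.11% were lower without overlap. CTSK (-0.09), DNAAF10 (-0.12), TASOR (-0.15) and ZC3HC1 (-0.08) complete the lower side.

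On the higher side, ZNF160, a zinc finger protein, read 0.848, 0.831, 0.727, 0.703 and 0.810 on the controls and 0.843, 0.875 and 0.929 at the lowest, median and highest TNF array, a difference of 0.17 ± 0.05. RTF2 (0.07), UBE4B (0.11), CLCN7 (0.10), RASSF4 (0.18), MCAM (0.15) and CYP17A1-AS1 (0.14) followed, each with a limma adjusted p of 1.00. ZNF160 did not overlap after normalization. RASSF4, a Ras association domain protein, and MCAM, an adhesion molecule, had other tested spots between -0.03 and 0.04. An unnamed spot (51J07) differed by 0.23 ± 0.05 without overlap, at 1.01 to 1.24 on the controls and 1.27 to 1.49 after TNF. Of the 9979 spots above 0 on all 12 arrays, 7 (0.0701%) did not overlap and were higher, and 11 (0.11%) did not overlap and were lower after TNF.

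The largest lower differences among spots above 0 on all arrays were those of SLC31A1 and CREG2. SLC31A1, the copper importer CTR1, read 2.74, 2.47, 2.92, 3.27 and 2.84 on the controls and 2.09, 2.36 and 2.83 at the lowest, median and highest TNF array. The groups overlapped, the difference was -0.22 ± 0.07, and a second spot differed by -0.08 ± 0.04. CREG2 differed by -0.21 ± 0.07, RNF141 by -0.19 ± 0.08 and OSBPL2, an oxysterol-binding protein, by -0.18 ± 0.06.

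Spots that carry the same gene were compared with each other. Among 2342 genes with at least 2 tested spots, 5972 pairs of spots could be formed, and 52.2% had the same sign. Of 6 pairs in which both spots had an unadjusted p under 0.05, 2 had the same sign. Across pairs, which are not independent, Pearson's r of the differences was 0.01 and Spearman's rho 0.04.

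Readings of 0 were compared apart from levels. Of 22729 spots at 0 on 1 to 11 arrays, 0 passed the exact Fisher test after adjustment (0%) and 338 (1.49%) had an unadjusted p under 0.05; 5 against 7 arrays cannot give a p below 0.00126. At 5 spots (0.022%) all controls were 0 and all TNF arrays above 0. They were N4BP1, a suppressor of cytokine production (0.115 to 0.134 after TNF), RAP2B, a small GTPase (0.123 to 0.146), FBXO32, the ubiquitin ligase atrogin-1 (0.127 to 0.143), CD27-AS1, an antisense RNA (0.170 to 0.192), and an unnamed spot (36K11). At 1 spot (0.0044%), FKBPL, an immunophilin-like protein, all TNF arrays were 0 and the controls read 0.154 to 0.164. Other tested spots of the same genes read above 0 in both groups: FBXO32 differed by -0.02, 0.00 and 0.03, N4BP1 by -0.02, and RAP2B by 0.01, -0.02, 0.02 and 0.16.

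The TNF response of THP-1 was not shown to differ from that of CaCo-2 at any spot. The interaction of line and treatment gave 0 of 16931 spots (0%) in limma after adjustment and 411 (2.43%) at an unadjusted p under 0.05. A column labelled as a CaCo-2 control repeats the readings of an array labelled CaCo-2 TNF (replicate 3); the repeat was left out and the array kept under its TNF label, so the CaCo-2 values rest on that label. PNRC1 differed by 0.26 in THP-1 and 0.05 in CaCo-2 (interaction 0.21, unadjusted p = 0.0521), and PPP1R15A by 0.30 and -0.01 (interaction 0.30, unadjusted p = 0.0206). An unnamed spot on the plate of TNF (95C24) read 0.540, 0.586, 0.487, 0.523 and 0.525 on the THP-1 controls and 0.532, 0.681 and 0.751 at the lowest, median and highest TNF array. TNF replicate 6 was lowest and lay among the controls. The difference was 0.32 ± 0.08 in THP-1 and 0.01 ± 0.08 in CaCo-2 (interaction unadjusted p = 0.00583), and without TNF replicate 6 it was the only spot to pass in THP-1 (0.39 ± 0.05, limma adjusted p = 0.0495).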

How the data were processed

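The deposited table holds array intensity values on a linear scale, as the values show. Per the labels' protocols, mRNA was isolated from total RNA, reverse transcribed with 33P-labelled dCTP and hybridised. No source used here states the image analysis, background treatment or scaling. Negative codes were set to missing. Columns that repeat another column were recognised from their values and left out, and control replicate 3, read as a sum from its values, was divided by 3. The 12 arrays were quantile normalized with 0 ranked lowest, log2 was taken, and 0 was then set to missing. Differences were tested two-sided with limma 3.58.1 in R 4.3.3 (lmFit, then eBayes with trend), and p-values were adjusted by Benjamini-Hochberg across every tested spot at a threshold of 0.05. As a check of the code, the fit was run on simulated data with independent normal noise. That run held no array read as a sum and no effect of plate address, and its outcome is not given here. Exact Fisher and permutation tests covered readings of 0, the TNF transcript and array quality. The number of arrays limits the precision.

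Symbols came from the platform annotation: 18025 spots carry 1 symbol, 858 several and 15677 none, and 17928 matched the human RefSeq table (GRCh38.p14). Genes were named by p, size, list and pattern of 0: the 8 smallest p and 6 largest differences in each direction, the 2 smallest p of each list, every spot at 0 in 1 group, and TNF, JUNB, IER3 and SOD2, with other spots of these genes; a selection is printed. The members, lists and rules were chosen with earlier results of these data known. Alternatives comprised 31 settings besides the main one; those on low readings of control replicate 3, on leaving it out together with TNF replicate 6, on source plates and on spots outside the human table were chosen after seeing the data. Figures used matplotlib under Python.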

Additional observations from a re-analysis of the deposited data

Results flagged for a closer look

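Of 84 sets of values (4 quality measures and 40 spots, in the control and in the TNF group, where at least 4 arrays gave a reading), 7 had an array far from the others by Dixon's criterion, where chance gives about 4.2. Many of these spots were named for their values on these same arrays, so the comparison with 4.2 is a description and not a test. On control replicate 2 the log2 level of the TNF spot was -1.03, against -1.37 to -1.31 on the other controls. On control replicate 3, VPS33A lay at -2.81, against -0.23 to -0.05. LPIN3 lay at 0.45 on control replicate 4, against 0.32 to 0.34, and TASOR at -0.012 on control replicate 1, against 0.042 to 0.053. TNF replicate 6 held 286 excluded spots, against 46 to 135 on the other TNF arrays. On the same array MCL1 (25B21) lay at -2.29, against -2.19 to -2.12, and the unnamed spot 95C24 at -0.96, against -0.61 to -0.43.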

How the results depend on the processing

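The count of 0 spots past the threshold became 6 with 0 raised to the lowest value of the array, where N4BP1, FBXO32, CD27-AS1, FKBPL and 2 unnamed spots passed, all but 1 of them at 0 throughout 1 group; 1 with the mean of single and summed columns; 1 with the replicate block; and between 0 and 1 when each array was left out. Each of these single calls was a different unnamed spot (38D22, 34O16 and, without TNF replicate 6, 95C24). The cause was not tested. The values did not show that the replicate numbers 1 to 4 pair the arrays, and the labels do not say so. Same-numbered arrays correlated at -0.32, -0.13, 0.26 and -0.19 in their deviations. With the replicate block TNF differed by 0.54 (limma adjusted p = 0.479).

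Spots at 0 throughout 1 group and above 0 throughout the other numbered 6 with all arrays and between 6 and 18 with 1 array left out, fewer arrays making the pattern easier to meet. They numbered 13, 16, 15, 18 and 12 without control replicates 1, 2, 3, 4 and 7, and 11, 10, 16 and 13 without TNF replicates 2, 4, 5 and 6. The interaction with CaCo-2 gave 0 in each setting run. Of 39 named spots besides TNF, 35 kept their direction in every setting in which they could be fitted, which was 24 to 31 settings; PPP1R15A, NFKBIZ and JUNB (54O01) could not be fitted without control replicate 3. SOD2 (32C13) reversed to -0.013 with quantile normalization of values above 0, to -0.020 as a gene mean, and ran from -0.012 to 0.027 with 1 array left out, while SOD2 (52P18) reversed to 0.0054 with array weights. UBE4B reversed to -0.064 with the mean of single and summed columns and MCL1 (25B21) to -0.028 as a gene mean. The number of spots at an unadjusted p under 0.05 ran from 165 to 1156.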
